A study of Mus musculus with 8 samples.

Results

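The troponin and tropomyosin genes that were followed are *Tnnt1*, *Tnnt2* and *Tnnt3* (troponin T), *Tnni1* and *Tnni2* (troponin I), *Tnnc1* and *Tnnc2* (troponin C), and *Tpm1*, *Tpm2* and *Tpm3* (tropomyosin). They are 10 of the 55401 genes in the table and were taken by gene symbol. Gene expression was measured by bulk RNA-seq of whole tibialis anterior (TA) muscles, a fast muscle of the lower leg, from male mice at 6 mo of age. The 4 mdx5cv muscles came from a dystrophic model of Duchenne muscular dystrophy, which carries a mutation in the dystrophin gene *Dmd* on the C57/Bl6 background. The 4 WT muscles came from C57/Bl6 mice of the same age, and no treatment is given for either group. The comparison asks which thin filament isoforms a dystrophic fast muscle transcribes and at what level.

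Troponin and tropomyosin switch the thin filament of striated muscle on and off with calcium. Troponin C binds calcium, troponin I holds the filament off at rest, troponin T anchors the complex to tropomyosin, and tropomyosin runs along actin and covers the sites where myosin binds. Each part is made from several genes. Slow fibers use *Tnnt1*, *Tnni1* and *Tnnc1*, fast fibers use *Tnnt3*, *Tnni2* and *Tnnc2*, and the heart uses *Tnnt2*, *Tnnc1* and *Tnni3*. Cardiac troponin T and slow troponin I are also made by developing skeletal muscle fibers. *Tpm1* and *Tpm2* encode the main tropomyosins of fast muscle, and *Tpm3* encodes that of slow fibers and non-muscle isoforms.

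Whole reads were recovered from the normalized counts, and they summed to between 13175524 and 14921057 per muscle. The 10 genes held 2.11% to 2.37% of the reads in WT and 1.58% to 2.08% in mdx5cv. *Dmd* had 6954 ± 857 normalized counts in WT (SD, n = 4) against 3964 ± 388 in mdx5cv, with no overlap. Since the mutation does not delete the gene, this level does not by itself check the genotype. Markers of fast muscle were high, with the fast myosin *Myh4* at 447053 ± 86136 normalized counts in WT and *Pvalb*, a calcium buffer of fast fibers, at 47108 ± 5420. The libraries are not stated to come from separate mice, so p-values measure the spread between these libraries. In whole muscle, fewer cells of a type and less RNA per cell cannot be told apart.

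The troponin genes for the slow and cardiac isoforms were the members that moved furthest, and the sequence just upstream of their starts is shown here for that reason. RefSeq (GRCm38.p6) lists at least 1 start for 8 of the 10 genes, and *Tnnt3* and *Tnni2* have no entry. Where 2 were listed, as for *Tnni1* and *Tnnt2*, the most upstream was used. The stretches of *Tnni1* and *Tnnt1* lie inside the annotated spans of these genes, so annotated transcripts also start further upstream. The stretches run 5′ to 3′ on the strand of the gene, end at the start site or at the first annotated exon base before it, and lie at chr7:4516005-4516225 (minus strand, *Tnnt1*), chr1:135799171-135799401 (plus strand, *Tnni1*), chr14:31208062-31208311 (plus strand, *Tnnc1*) and chr1:135836084-135836333 (plus strand, *Tnnt2*). Capitals mark the motifs CAGCTG, an E-box bound by myogenic factors, and CATTCC, the MCAT motif bound by TEAD factors, each searched on both strands.
Tnnt1: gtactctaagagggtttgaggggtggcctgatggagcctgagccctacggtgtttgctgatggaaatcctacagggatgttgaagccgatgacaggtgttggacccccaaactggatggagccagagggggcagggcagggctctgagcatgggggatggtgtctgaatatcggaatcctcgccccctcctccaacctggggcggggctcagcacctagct
Tnni1: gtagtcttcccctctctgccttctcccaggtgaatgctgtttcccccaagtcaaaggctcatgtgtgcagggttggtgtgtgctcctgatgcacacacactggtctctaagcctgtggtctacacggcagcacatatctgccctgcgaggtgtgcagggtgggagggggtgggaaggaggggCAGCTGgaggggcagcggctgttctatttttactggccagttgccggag
Tnnc1: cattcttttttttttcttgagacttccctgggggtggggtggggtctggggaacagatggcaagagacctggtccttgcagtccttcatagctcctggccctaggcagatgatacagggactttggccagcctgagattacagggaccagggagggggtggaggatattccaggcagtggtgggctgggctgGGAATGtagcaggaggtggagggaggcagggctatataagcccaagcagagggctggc
Tnnt2: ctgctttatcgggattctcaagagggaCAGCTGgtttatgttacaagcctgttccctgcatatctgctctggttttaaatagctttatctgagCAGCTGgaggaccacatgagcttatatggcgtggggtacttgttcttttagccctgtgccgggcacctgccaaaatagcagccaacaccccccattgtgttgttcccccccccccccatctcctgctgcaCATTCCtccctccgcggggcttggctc
The 250 bases upstream of *Tnnt2* held CAGCTG at 2 places and CATTCC at 1 place, 27 to 22 bases before the start. *Tnni1* held CAGCTG once and *Tnnc1* held CATTCC once, on the reverse strand, 58 to 53 bases before the start. *Tnnt1* held neither motif. Over the 8 genes searched, CAGCTG was present in 4 and CATTCC in 3. Of all 32851 upstream windows of that length in the RefSeq table, 13.0% held CAGCTG and 12.6% held CATTCC. The MEF2 and CArG motifs were in 0 of the 8 windows, and in 2.9% and 1.5% of all windows.

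In mdx5cv, 5 of the 10 genes were called higher and 4 lower at an adjusted p under 0.05 (limma on log2(normalized count + 1), Benjamini-Hochberg over 13677 genes). Over all genes tested, 20.9% (2854) were called higher and 20.1% (2743) lower. These splits depend on the scaling. With every library scaled to the same read total in place of the size factors, 5444 genes were called higher and 820 lower, and the members split into 5 higher and 1 lower. With a log2 fold change of at least 1 in addition, 4 members were called higher (10.3% of all genes) and 0 lower (3.27% of all genes fell by at least 1). The 4 that rose most were *Tnni1*, *Tnnt2*, *Tnnc1* and *Tnnt1*, the slow and cardiac troponins. The fast troponins *Tnnt3*, *Tnni2* and *Tnnc2* fell to between 62.4% and 67.3% of the WT mean. Every mdx5cv muscle was above every WT muscle for 5 members (20.3% of all genes) and below for 3 members (19.8% of all genes). All 10 members passed the filter on low values, although *Tnni1*, *Tnnt2* and *Tnnc1* were below a normalized count of 10 in at least 1 WT muscle.

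**Figure D1:**
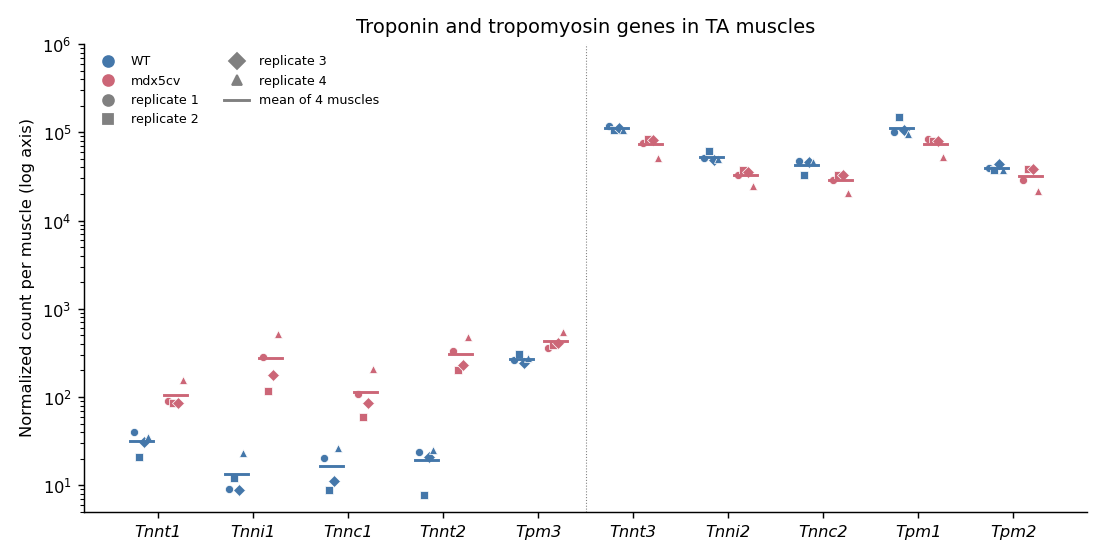
Normalized count of each gene in each TA muscle, on a log axis. Points are single muscles (blue WT, red mdx5cv, one marker shape per replicate) and bars are means of 4 muscles. The slow and cardiac troponins sit at 7.68 to 40.1 in WT and at 59.4 to 522 in mdx5cv, and the fast troponins lie between 20638 and 117988 in all 8 muscles.

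*Tnni1*, which encodes slow skeletal troponin I, lies on chromosome 1 (135779434 to 135810989, plus strand, GRCm38). Its normalized counts were 9.17, 12.1, 8.85 and 23.3 in WT replicates 1 to 4 and 288, 117, 177 and 522 in mdx5cv replicates 1 to 4. The lowest mdx5cv muscle was well above the highest WT muscle, and mdx5cv replicate 4 was the highest. It rose by 4.15 on the log2 scale (SE 0.40, adjusted p = 7.28e-06), the largest log2 fold change of the 10. The WT values rest on 8 to 22 reads per muscle, so the size of this rise is less certain than its direction.

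*Tnnt2*, which encodes cardiac troponin T, lies 25364 bases from *Tnni1* on the same strand of chromosome 1 (135836354 to 135852260). It had normalized counts of 24.1, 7.68, 21.0 and 25.4 in WT and 330, 203, 231 and 475 in mdx5cv. The groups did not overlap, and WT replicate 2 was below the other 3 WT muscles. This was a log2 fold change of 3.96 (SE 0.34, adjusted p = 3.85e-06). In mdx5cv, *Tnnt2* had more normalized counts than *Tnnt1* in every muscle, and in WT it had fewer in every muscle. *Tnnt2* has more annotated exon bases than *Tnnt1*, and per kb of exon it was below *Tnnt1* in every WT muscle and in mdx5cv replicates 2, 3 and 4. The order in mdx5cv depends on the length used. With the longest coding transcript, *Tnnt2* averaged 0.423% and *Tnnt1* 0.161% of troponin T in mdx5cv, against 0.0157% and 0.0290% in WT.

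*Tnnc1*, which encodes the troponin C shared by slow fibers and the heart, lies on chromosome 14 (31208312 to 31211729, plus strand). Its normalized counts were 20.6, 8.78, 11.1 and 26.5 in WT and 107, 59.4, 85.5 and 207 in mdx5cv. The groups were apart, at a log2 fold change of 2.68 (SE 0.38, adjusted p = 0.00014) with 8 to 25 reads per WT muscle behind it.

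*Tnnt1*, which encodes slow skeletal troponin T, lies on chromosome 7 (4504570 to 4516382, minus strand). It had normalized counts of 40.1, 20.8, 31.0 and 35.0 in WT and 90.8, 85.8, 85.5 and 157 in mdx5cv. The mdx5cv replicates 1 to 3 lay close together and replicate 4 stood above them. The rise was 1.68 on the log2 scale (SE 0.24, adjusted p = 0.000149), the smallest among the slow and cardiac troponins.

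*Tnnt3*, which encodes fast skeletal troponin T (chromosome 7, 142498836 to 142516009, plus strand), had the highest level of the 10 per kb of exon. Its normalized counts were 117988, 105809, 112083 and 107299 in WT and 74716, 84666, 81593 and 50821 in mdx5cv. All mdx5cv muscles were lower, and replicate 4 was the lowest. *Tnnt3* had a log2 fold change of -0.63 (SE 0.21, adjusted p = 0.0277).

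*Tnni2*, which encodes fast skeletal troponin I, lies 54425 bases from *Tnnt3* on the same strand of chromosome 7 (142441808 to 142444410). It had normalized counts of 50924, 60694, 47936 and 49210 in WT and 32566, 37256, 35799 and 24557 in mdx5cv. The groups did not overlap. *Tnni2* had a log2 fold change of -0.69 (SE 0.17, adjusted p = 0.00641), and was the only fall of the 4 that held in all 18 alternatives run, with a highest adjusted p of 0.0366.

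*Tnnc2*, which encodes fast skeletal troponin C (chromosome 2, 164777161 to 164779967, minus strand), had normalized counts of 46784, 32809, 45581 and 45872 in WT. In mdx5cv it had 28619, 32669, 33215 and 20638. The groups overlapped, because WT replicate 2 lay below mdx5cv replicate 3, and the log2 fold change was -0.58 (SE 0.19, adjusted p = 0.0259). *Tnnc2* shares 592 exon bases with *Ube2c* on the opposite strand, and at most 32 reads of any muscle were assigned to *Ube2c*. The strand setting of the counting is not given, so a loss of *Tnnc2* reads over the shared bases could not be checked. Such a loss would change its level per kb and the troponin C shares.

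The falls of *Tnnt3*, *Tnnc2* and *Tpm1* were close to the threshold. *Tnnt3* and *Tnnc2* each lost the call in 6 of 18 alternatives, among them the fits without WT replicate 1, 3 or 4 or without mdx5cv replicate 1 (adjusted p = 0.0503 to 0.0753). With equal read totals, the median of all genes moved from 0.00 to 0.36 on the log2 scale. *Tnnt3*, *Tnni2* and *Tnnc2* then had log2 fold changes of -0.27, -0.33 and -0.22, and *Tnni2* alone of these was called.

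**Figure D2:**
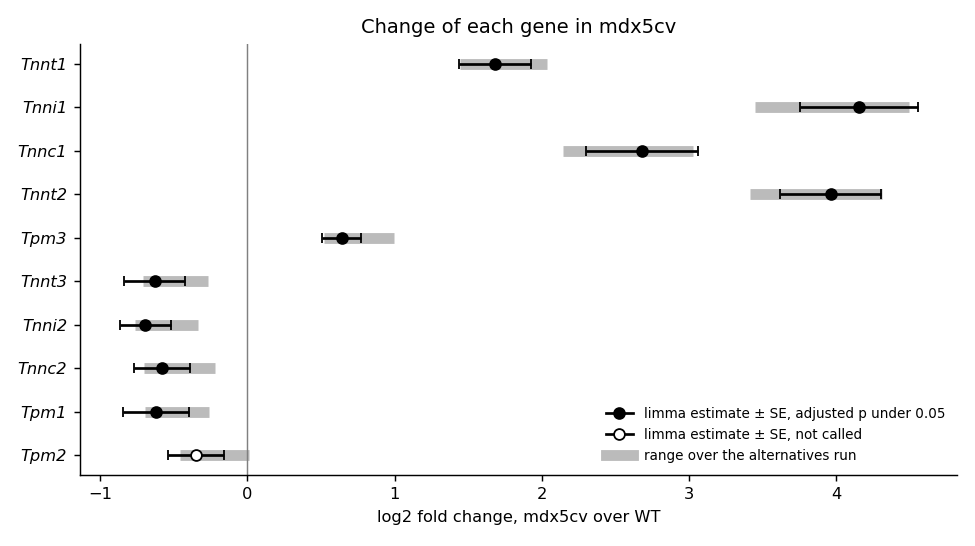
The log2 fold change (mdx5cv over WT) of each gene. Points and bars are the limma estimate and its SE over 4 and 4 muscles, filled where the adjusted p was under 0.05, and grey bands span the alternative fits. The slow and cardiac troponins lie between 1.68 and 4.15, and the band of *Tpm2* reaches past 0.

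*Tpm1*, which encodes the alpha tropomyosin of fast muscle (chromosome 9, 67022590 to 67049406, minus strand), had normalized counts of 101249, 150065, 104942 and 94972 in WT. In mdx5cv it had 83320, 78951, 78670 and 52222. All mdx5cv muscles were lower, WT replicate 2 was the highest muscle and mdx5cv replicate 4 the lowest. On average the log2 fold change was -0.62 (SE 0.23, adjusted p = 0.0416), and the call was lost in 8 of 18 alternatives. Without WT replicate 2 the log2 fold change was -0.48 (adjusted p = 0.120).

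*Tpm2*, which encodes beta tropomyosin (chromosome 4, 43514711 to 43523765, minus strand), had normalized counts of 38969, 37360, 43901 and 37811 in WT and 28614, 37997, 38616 and 21837 in mdx5cv. The groups overlapped, and mdx5cv replicates 2 and 3 were within the WT range. Its log2 fold change of -0.35 (SE 0.19, adjusted p = 0.160) did not pass the test, and it was 0.0087 with equal read totals.

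*Tpm3* (chromosome 3, 90072649 to 90100902, plus strand) had normalized counts of 264, 304, 242 and 274 in WT and 359, 393, 413 and 541 in mdx5cv. All mdx5cv muscles were higher, and the log2 fold change was 0.64 (SE 0.13, adjusted p = 0.00206). The gene count sums the slow fiber and the non-muscle isoforms, which a count per gene cannot separate. *Tpm4*, a paralog that encodes non-muscle tropomyosin, rose by 0.73 on the log2 scale (SE 0.14, adjusted p = 0.00135), from 292 ± 26.5 to 492 ± 110 normalized counts.

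Per kb of exon, the order of the levels in WT was *Tnnt3*, *Tnnc2*, *Tnni2*, *Tpm1*, *Tpm2*, *Tpm3*, *Tnnc1*, *Tnnt1*, *Tnni1* and *Tnnt2*. *Tnnt3* stood at 69990 ± 3469 normalized counts per kb and *Tnnt2* at 2.52 ± 1.05 (SD, n = 4). The ranges of *Tpm1* and *Tpm2* overlapped, as did those of *Tnnc1* and *Tnnt1* and those of *Tnni1* and *Tnnt2*, and all other neighbours in that order were apart. In mdx5cv the first 5 places were the same, although the ranges of *Tnnt3* and *Tnnc2* now overlapped too. The genes *Tnnc1* (110 ± 61.9), *Tnni1* (76.7 ± 49.6), *Tpm3* (70.1 ± 13.0), *Tnnt1* (47.6 ± 15.9) and *Tnnt2* (39.9 ± 15.8) followed with ranges that overlapped from each to the next. The place of *Tnni1* ahead of *Tpm3* rested on mdx5cv replicate 4, without which their means were 53.9 and 63.9 normalized counts per kb. Both orders rest on the length over all annotated exons and can change with another length. *Tnnt2* has 7752 bases over all exons and 1200 in the longest coding transcript, *Tnni2* has 1497 and 768, and *Tnnc2* has 800 and 700.

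The share of each isoform within its subunit was computed in each muscle from levels per kb, which makes it independent of the size factors. The fast isoforms held nearly all of the troponin in both groups. *Tnnt3* made up 99.98% ± 0.0060 of troponin T in WT (SD, n = 4) and 99.79% ± 0.136 in mdx5cv, where the lowest muscle, mdx5cv replicate 4, was at 99.6%. *Tnni2* was 99.99% of troponin I in WT and 99.6% in mdx5cv, and *Tnnc2* was 99.97% and 99.65% of troponin C. The minor isoforms thus started from a very small base.

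*Tnni1* rose from 0.0108% ± 0.0059 to 0.395% ± 0.336 of troponin I, 36.6 times the WT share. *Tnnt2* rose from 0.0036% ± 0.0015 to 0.0967% ± 0.0646 of troponin T, 27.0 times the WT share. *Tnnc1* rose from 0.0294% ± 0.0121 to 0.347% ± 0.285 of troponin C, 11.8 times the WT share. *Tnnt1* rose from 0.0204% ± 0.0046 to 0.114% ± 0.0719 of troponin T, 5.58 times the WT share. In each case the groups were apart (exact permutation test over 70 assignments, two-sided, p = 0.0286, the smallest this design allows, adjusted p = 0.0381 over 8 shares). The SD in mdx5cv was large because replicate 4 held the highest share of every slow or cardiac isoform, at 0.876% for *Tnni1*. Without this muscle the difference between the groups went from 0.384 to 0.223 percentage points for *Tnni1*, from 0.0931 to 0.0620 for *Tnnt2*, from 0.318 to 0.179 for *Tnnc1* and from 0.0937 to 0.0579 for *Tnnt1*. The level of *Tnnt2* depends on its length, which is 7752 bases over all annotated exons and 1200 bases for the longest coding transcript. With the latter its share went from 0.0157% to 0.423%. The same choice moved the difference between the groups from 0.384 to 0.614 percentage points for *Tnni1*, from 0.193 to 0.296 for *Tpm3* and from -0.187 to -0.540 for *Tnnt3*. Without division by length, the difference for *Tnni1* was 0.915.

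Tropomyosin shares and sums were taken over *Tpm1*, *Tpm2* and *Tpm3*, and leave out *Tpm4*. Within these 3 genes, *Tpm3* rose from 0.144% ± 0.0152 to 0.338% ± 0.154 (exact permutation test, p = 0.0286, adjusted p = 0.0381). *Tpm1* held 55.6% ± 5.79 in WT and 50.9% ± 4.08 in mdx5cv, and *Tpm2* held 44.2% ± 5.78 and 48.7% ± 4.10. These shares of the major forms overlapped between the groups, and the differences of -4.71 and 4.52 percentage points were within the spread of the muscles (exact permutation test, adjusted p = 0.257 for both). The balance of *Tpm1* and *Tpm2* depends on the length used. In WT they held 67.6% and 32.2% with the longest coding transcript, and 73.4% and 26.4% without division by length. In mdx5cv these were 63.3% and 36.2%, and 69.6% and 30.0%.

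**Figure D3:**
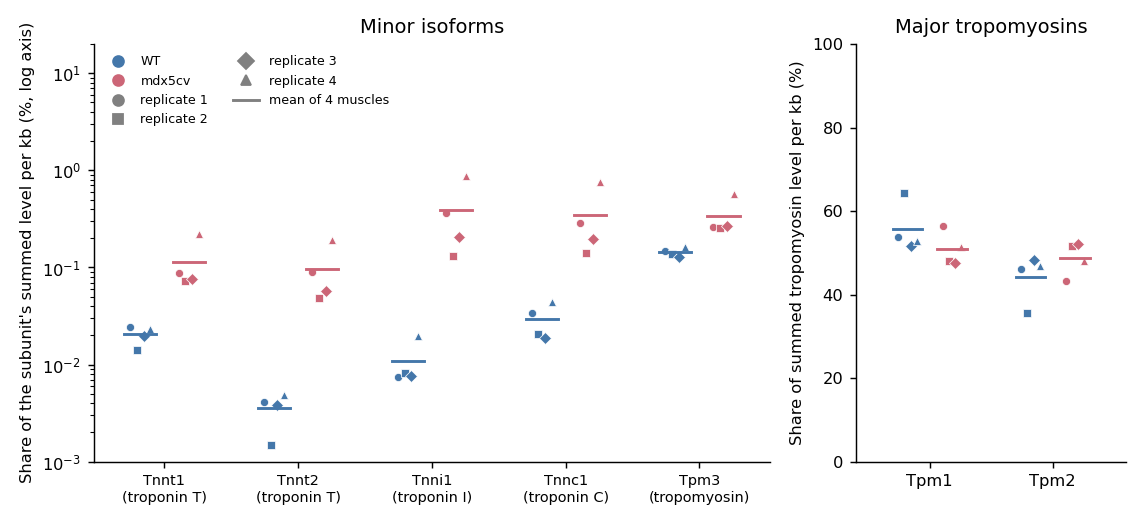
Share of each isoform in the summed level per kb of its subunit, per muscle. On the left, minor isoforms are on a log axis. On the right, *Tpm1* and *Tpm2* are on a linear axis from 0 to 100%. Points are muscles and bars are means of 4. With lengths over all annotated exons, the minor isoforms stay below 1% in every muscle, with mdx5cv above WT in each, while *Tpm1* and *Tpm2* overlap between the groups.

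Each troponin sum is nearly all its fast isoform, so the tests of the troponin sums largely repeat those of *Tnnt3*, *Tnni2* and *Tnnc2*. They are not separate evidence of a fall. Summed troponin T per kb fell from 70007 ± 3473 to 46170 ± 9651, a log2 difference of -0.63, and summed troponin I fell from 34868 ± 3874 to 21817 ± 3741, a log2 difference of -0.69 (exact permutation test, p = 0.0286 and adjusted p = 0.0381 over 4 sums for each). Summed troponin C was 53468 ± 8324 in WT and 36092 ± 7197 in mdx5cv, a log2 difference of -0.58 with overlapping groups (exact p = 0.0571, adjusted p = 0.0571). Summed tropomyosin fell by 0.50 on the log2 scale, from 31022 ± 3660 to 22292 ± 4601 (exact p = 0.0286, adjusted p = 0.0381). With equal read totals these log2 differences were smaller, at -0.27 for troponin T and -0.33 for troponin I (exact p = 0.0286 for both, not adjusted). They were -0.22 for troponin C (exact p = 0.257) and -0.14 for tropomyosin (exact p = 0.314), also not adjusted. *Tnnt3* itself was not called by limma with that scaling (adjusted p = 0.115).

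Ratios between members within a muscle were taken on log2(normalized count + 1). They cancel the size factor for high genes, and only nearly so for low genes, whose ratios the added 1 shrinks. Among the fast troponins, the log2 ratio of *Tnnt3* to *Tnni2* was 1.09 ± 0.20 in WT and 1.16 ± 0.07 in mdx5cv, *Tnnt3* to *Tnnc2* was 1.39 ± 0.21 and 1.34 ± 0.05, and *Tnni2* to *Tnnc2* was 0.30 ± 0.39 and 0.18 ± 0.06. None of these 3 differences, from -0.11 to 0.06, passed the exact permutation test (p = 0.714 to 0.971). The wider WT spread came from WT replicate 2, whose *Tnni2* to *Tnnc2* ratio of 0.89 was apart from 0.07 to 0.12 in the other WT muscles.

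Among the slow and cardiac troponins the groups were further apart. *Tnni1* went from -1.26 ± 0.71 to 1.22 ± 0.60 relative to *Tnnt1* on the log2 scale, a difference of 2.47, and the groups did not overlap. The log2 ratio of *Tnni1* to *Tnnc1* was 1.47 higher in mdx5cv and that of *Tnnt2* to *Tnnt1* was 2.28 higher, again with no overlap. Each of these 3 had the smallest exact p the design allows, 0.0286, and an adjusted p of 0.0857 over the 9 pairs compared, so none passed the correction. For *Tnnc1* to *Tnnt1* the difference was 0.998 with overlap (exact p = 0.0571). *Tnni1* and *Tnnt2*, the neighbouring genes of chromosome 1, differed by only 0.19 in their rise (exact p = 0.743).

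**Figure D4:**
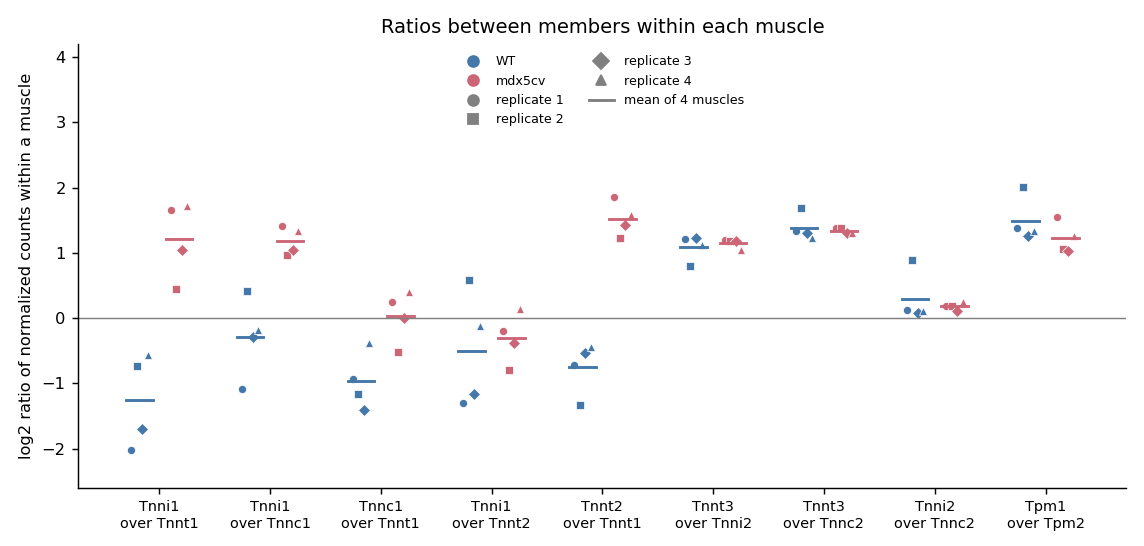
The log2 ratio of normalized counts, each plus 1, of pairs of members in each muscle. Points are muscles and bars are means of 4. The 3 ratios of *Tnni1* to *Tnnt1*, *Tnni1* to *Tnnc1* and *Tnnt2* to *Tnnt1* are separate between WT and mdx5cv, and the other 6 overlap.

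The troponin I and T genes lie in pairs in the mouse genome. Beyond *Tnnt2*, the next tested gene, *Igfn1*, is 101317 bases away on the opposite strand, and it rose from 139 ± 66.8 to 849 ± 231 normalized counts (log2 fold change 2.74, SE 0.34, adjusted p = 4.66e-05). *Phlda3*, 10297 bases from *Tnni1* on the other side, did not pass the test (log2 fold change -0.09, adjusted p = 0.707). *Tnni3*, cardiac troponin I, lies 1922 bases from *Tnnt1*, and at means of 1.08 (WT) and 2.12 (mdx5cv) normalized counts it was too low to test. *Ppp1r12c* and *Tmem86b*, the tested genes that flank *Tnnt1* and *Tnni3*, had log2 fold changes of 0.08 and 0.48 and did not pass (adjusted p = 0.649 and 0.132). Between the falling genes *Tnni2* and *Tnnt3* lies *Lsp1*, a leukocyte protein gene, which rose by 1.25 on the log2 scale (SE 0.14, adjusted p = 1.72e-05). *Mrpl23*, beyond *Tnnt3*, fell by 0.50 (SE 0.12, adjusted p = 0.0054), and *Ctsd*, on the other side of *Tnni2*, had a log2 fold change of 0.18 (adjusted p = 0.296).

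Other genes of slow fibers went in either direction. Of 8 other slow fiber genes, 1 was called higher and 3 lower, with a median log2 fold change of -0.40 against 0.00 over all genes. *Atp2a2*, whose isoforms include the slow and cardiac calcium pump, rose from 295 ± 52.6 to 967 ± 296 normalized counts (log2 fold change 1.68, SE 0.19). A count per gene cannot separate the isoforms of *Atp2a2*. *Myl3*, the slow and cardiac essential light chain, fell from 357 ± 99.5 to 38.7 ± 22.8 (log2 fold change -3.56, SE 0.57, adjusted p = 0.000326). Its mdx5cv replicate 1 was at 4.63 and the other mdx5cv muscles were at 47.9 to 52.2. *Myh7b*, a further slow myosin gene, and *Myoz2*, a Z-disc gene of slow fibers, were also called lower, with log2 fold changes of -1.40 and -0.84. *Myh7b* lost the call without WT replicate 1 or 3 (adjusted p = 0.0526 and 0.0546), and *Myoz2* lost it with equal read totals (adjusted p = 0.0922). *Myh7*, the slow myosin heavy chain, was at 49.2 ± 49.1 in WT and 138 ± 89.7 in mdx5cv with overlap (log2 fold change 1.47, SE 0.70, adjusted p = 0.111), and it was called higher with equal read totals (1.82, adjusted p = 0.0457). Here too mdx5cv replicate 1 was low, at 19.5 against 125 to 230 in the other mdx5cv muscles. That muscle was also the lowest for *Myh7b*, but not for *Atp2a2* or *Casq2*.

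Of 12 other genes of fast fibers, 0 were called higher and 3 lower, with a median of -0.13. The 3 were *Myh2*, the myosin of oxidative fast fibers (log2 fold change -1.54, SE 0.50), *Myoz1* (-0.76, SE 0.18) and *Actn3*, the Z-disc actinin of fast fibers (-0.64, SE 0.19). *Myh4*, the main myosin of the muscle, had a log2 fold change of -0.07 (SE 0.33, adjusted p = 0.879). *Myh2* lost the call without WT replicate 1 or 4 (adjusted p = 0.0681 and 0.0542). In mdx5cv replicate 1 it was at 714 normalized counts, against 3955 to 5751 in the other mdx5cv muscles. With equal read totals 2 genes of the list were called higher and 1, *Myoz1*, lower.

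Of 15 other thin filament genes, 2 were called higher and 2 lower, with a median of -0.05. *Actc1*, cardiac actin, rose from 955 ± 334 to 3214 ± 1356 normalized counts (log2 fold change 1.72, SE 0.25, adjusted p = 0.000179), and *Lmod2*, which lengthens the pointed end, rose by 0.67 (SE 0.19). *Tmod4*, the pointed end cap of fast muscle, and *Capza2*, of the barbed end cap, fell by 0.60 (SE 0.13) and 0.53 (SE 0.12). With equal read totals 5 genes of the list were called higher and 0 lower.

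Genes of regenerating fibers were higher in mdx5cv. Of 9 tested, *Mymk*, *Mymx* and *Chrng* reached the filter on low values through mdx5cv only and so had to differ, and the other 6 were all called higher. *Myh3*, embryonic myosin, rose from 39.8 ± 7.43 to 3101 ± 2096 normalized counts (log2 fold change 6.02, SE 0.35). The myoblast fusion genes *Mymk* and *Mymx* were at means of 0.265 and 0 in WT and 219 and 44.6 in mdx5cv, and *Chrng*, the fetal acetylcholine receptor subunit, was at 0.265 and 115. *Myh8*, perinatal myosin, rose by 3.74 (SE 0.21). The summed level of the list ranged from 316 to 412 in WT and from 3395 to 11744 in mdx5cv, where replicate 4, the highest for *Tnni1*, *Tnnt2*, *Tnnc1* and *Tnnt1*, was again the highest. Whether these fibers are the source of the slow and cardiac troponin reads was not tested.

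**Figure D5:**
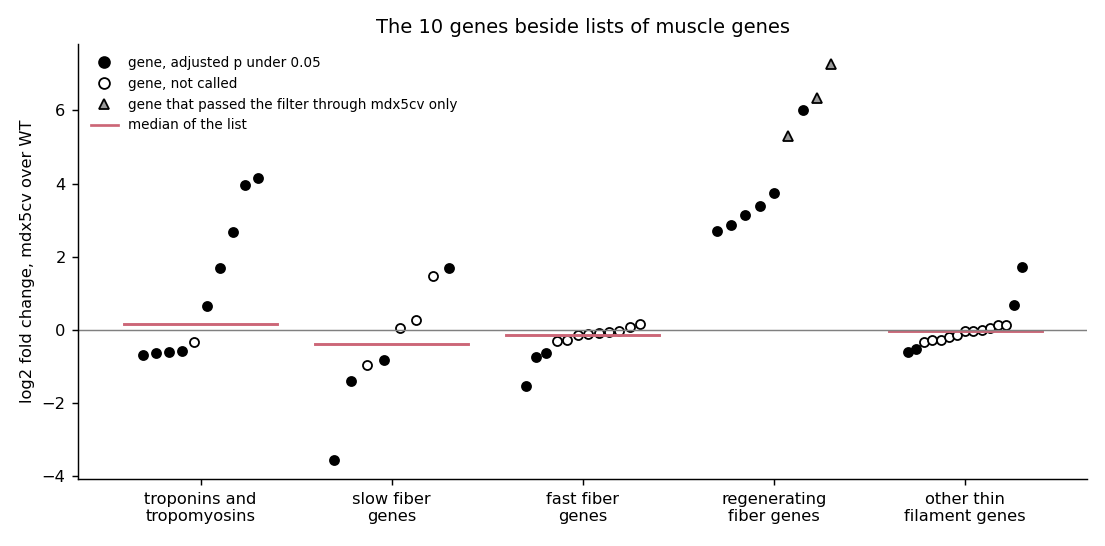
The log2 fold change (mdx5cv over WT) of the 10 troponin and tropomyosin genes beside 4 lists of muscle genes. Each point is a gene, filled where the adjusted p was under 0.05, and red bars are list medians. The lists of slow fiber, fast fiber and other thin filament genes have medians of -0.40, -0.13 and -0.05. Of the regenerating fiber genes, 6 lie between 2.71 and 6.02, and 3 (grey triangles, no median drawn) passed the filter through mdx5cv only.

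Among markers of other cells, macrophage and fibroblast genes were mostly higher in mdx5cv, and smooth muscle genes went in either direction. Of 6 macrophage genes, *Itgam* reached the filter through mdx5cv only and the other 5 were called higher, with a summed level of 364 to 593 in WT and 3540 to 8587 in mdx5cv. Of 6 fibroblast genes 5 were called higher (median 1.74), with sums of 6387 to 9689 and 22460 to 41026. In mdx5cv this sum was mostly the collagens *Col1a1*, *Col1a2* and *Col3a1*, with means of 6996, 7048 and 12658. *Lum* and *Pdgfra* rose by 1.19 and 0.63 on the log2 scale, and *Dcn* was not called (-0.24, adjusted p = 0.425). The macrophage and fibroblast sums were highest in mdx5cv replicate 4, where *Tnnt3*, *Tnni2*, *Tnnc2*, *Tpm1* and *Tpm2* were lowest. The part of these cells in the falls of the fast genes was not tested. Of the 6 smooth muscle genes 5 were tested, 1 was higher and 3 were lower (median -0.87), with sums of 1592 to 2284 in WT and 1617 to 2203 in mdx5cv. With equal read totals 2 were higher and 2 lower, since *Smtn* gained the call and *Lmod1* lost it (adjusted p = 0.0601).

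Genes that mark heart muscle were low or at 0 in both groups. Of 6 such genes, *Myh6* alone passed the filter for testing, and it fell by 1.52 on the log2 scale (SE 0.41, adjusted p = 0.00989), from 53.3 ± 11.6 to 20.7 ± 11.1 normalized counts. *Nppa* was at 0 in all 8 muscles, and *Nppb*, *Myl7*, *Tnni3* and *Ryr2* had means of at most 10.5 in either group. The summed level of the list was 47.2 to 79.1 in WT and 10.2 to 40.6 in mdx5cv.

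Of 8 regulators of fiber type, 2 were called higher and 2 lower. *Sox6*, a repressor of slow fiber genes in fast fibers, fell by 0.56 (SE 0.13, adjusted p = 0.00392), and *Tbx15*, a factor of fast glycolytic fibers, fell by 0.48 (SE 0.14, adjusted p = 0.0148). *Prox1*, which is expressed in slow fibers, rose by 0.96 (SE 0.26, adjusted p = 0.0094) from 16.2 ± 2.91 normalized counts, and *Vgll2*, a cofactor of TEAD, rose by 0.52 (SE 0.15, adjusted p = 0.0139). The falls in this list depended on the scaling, since with equal read totals 6 were called higher and 0 lower.

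The genes whose pattern over the 8 muscles was most like that of *Tnnt1* were *Atp2a2*, *Ctsz* and *Actn1*. Their log2 values, each set against the gene's own WT mean, differed from those of *Tnnt1* by a root mean square of 0.10, 0.13 and 0.20, out of 7633 genes compared. For *Tnnt2* the closest were *Myh8*, *Cdkn1a* and *Myo1f*, at 0.48, 0.49 and 0.50. *Myh8*, *Cdkn1a* and *Myo1f* had WT means of 52.8, 23.2 and 19.3 normalized counts, and *Actn1* had 90.8. They reached the limit of 100 through mdx5cv only, so they had to be higher there. Their likeness thus largely reflects the size of that rise. *Atp2a2* was highest in mdx5cv replicate 4, at 2.26 above its WT mean, and lowest in WT replicate 2, at -0.39, the same muscles that were highest and lowest for *Tnnt1*. Since *Atp2a2* was picked as the closest gene over these same 8 muscles, this match comes with the choice and is not a separate result.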

How the data were processed

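Total RNA of whole TA muscles was made into stranded, ribosome-depleted libraries and sequenced. Per the labels, the submitters' processing notes name Trim Galore 0.6.4, STAR 2.6.0c, featureCounts, DESeq2 1.26.0 and mm10. The annotation release and the strand setting of the counting are not given in the sources used here. The authors deposited a signal per gene, which is the read count divided by a size factor per library. All values (100%) gave whole reads within 0.01 when multiplied by that factor.

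Genes whose normalized counts averaged 10 or more were tested with limma 3.58.1 (lmFit, eBayes with a variance trend, two-sided, R 4.3.3) on log2(normalized count + 1), 4 mdx5cv against 4 WT libraries grouped by genotype label, with Benjamini-Hochberg adjustment over 13677 genes. Fold changes on this scale understate those of low genes. Alternatives were other pseudocounts, filters and scalings, no variance trend, a replicate block, DESeq2 1.42.0 and the quasi-likelihood test of edgeR 4.0.16 on the recovered reads, and leaving out each library. The fits were tested on simulated data. Shares, sums and ratios were compared by exact permutation tests, and the ratios were added after the values were seen. Levels per kb used exon-union lengths of GENCODE M21 (GRCm38), in which 55141 of 55401 gene IDs were found. No 2 libraries of a group agreed within sampling noise (chi-square per degree of freedom 9.27 to 42.2).

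The members and lists were chosen with earlier results of these data known. Genes were named by a rule: the 10 members, the paralogs, *Myh7*, *Myh4*, *Myh3* and the genes of each list with the largest changes, the tested neighbours of the troponin genes, and 3 genes most like *Tnnt1* and *Tnnt2*. *Dmd*, *Pvalb*, *Casq2*, *Pdgfra*, *Dcn* and some low cardiac genes were named outside it.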

Additional observations from a re-analysis of the deposited data

Results flagged for a closer look

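In 10 of 44 sets of 4 muscles, a single muscle stood apart from the other 3, with a gap to its nearest neighbour above Dixon's critical value for 4 samples. Chance gives about 2.2 of 44. In mdx5cv, replicate 4 was apart for the normalized count of *Tnnt1* (157 against 85.5 to 90.8) and of *Tpm1* (52222 against 78670 to 83320). It was also apart for the share of *Tnnt1* in troponin T (0.222% against 0.0727% to 0.0871%) and of *Tpm3* in tropomyosin (0.568% against 0.256% to 0.267%).

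In WT, replicate 2 was apart for the normalized count of *Tnnt2* (7.68 against 21.0 to 25.4) and of *Tnnc2* (32809 against 45581 to 46784), and for the summed troponin C level per kb (41020 against 56987 to 58500). The same muscle had a *Tpm1* share of 64.2% against 51.7% to 53.7% in the other 3, and a *Tpm2* share of 35.6% against 46.1% to 48.2%. WT replicate 4 was apart for the share of *Tnni1* in troponin I (0.0197% against 0.0075% to 0.0083%). These sets overlap, since a share and a sum are made from the counts beside them.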

How the results depend on the processing

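Over 177 refits of single members, 156 kept direction and side of the threshold, 20 lost the call and 1, *Tpm2* with equal read totals (0.0087), changed sign. *Tnnt1*, *Tnnt2*, *Tnni1*, *Tnnc1* and *Tpm3* kept their calls in every alternative that tested them. The 4 falls became 1 with no filter on low values and 1 with equal read totals, which put the median of all genes at 0.36, and 1 to 4 when a library was left out (1 without WT replicate 1 or 3 or mdx5cv replicate 1, and 2 without WT replicate 4). A filter of 10 normalized counts in every muscle left 7 members, of which 2 were called higher, 1 of them with a log2 fold change of at least 1. The summed tropomyosin difference was -0.14 with equal read totals. Whether replicate numbers pair the muscles was not settled. Deviations from the group means correlated at 0.05, 0.03, 0.07 and 0.15 for the same number, and at -0.15 to 0.07 for different numbers. With a replicate block 5 members were higher and 4 lower. Leaving out mdx5cv replicate 4 lowered the mdx5cv minus WT share by over 1.5 times for *Tnnt1* (0.0579 percentage points), *Tnnt2* (0.0620), *Tnni1* (0.223), *Tnnc1* (0.179), *Tpm3* (0.116) and *Tnnt3* (-0.120), and leaving out WT replicate 2 put *Tpm1* at -1.85 and *Tpm2* at 1.66. *Actn3* lost its call with no filter (adjusted p = 0.0948) and *Myh2* with DESeq2 (adjusted p = 0.112) or no variance trend (adjusted p = 0.0687). Depth limits the WT levels of *Tnni1*, *Tnnc1* and *Tnnt2*, which rest on 7 to 25 reads.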
